A study of Homo sapiens with 12 samples.

Results

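The genes described here are 48 protein-coding genes that copy the genome in S phase, out of 60504 genes with a value in the deposited tables. They were chosen by function, as the best known parts of the replication machinery: the 6 MCM helicase subunits, 5 origin licensing genes, 7 genes that activate the helicase, 9 polymerase and primase subunits, 8 genes of the sliding clamp, its loader and Okazaki fragment maturation, 3 subunits of the single-strand binding protein RPA, 4 genes of nucleotide supply, and 6 genes of chromatin assembly, checkpoint and S phase control. All 48 had 1 entry in the tables and passed the filter on low values in each comparison (1 TPM in 2 or more libraries of the fit, where TPM is the deposited abundance scaled by gene length and to a fixed total per library). Another 46 genes of replication and 22 genes of mitosis were followed beside them.

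The libraries came from T24, an established human bladder cancer line, and the labels of 8 of them name a knockout or an overexpression of U11. U11 is a small nuclear RNA of the minor spliceosome, the machinery that removes the rare U12-type introns. The 12 libraries formed these groups: 2 libraries labelled U11 knockout with 2 untreated T24 libraries, and 6 libraries labelled U11 overexpression with another 2 untreated T24 libraries. Per the study's methods, the knockout was made with a pair of guides in a Cas9 plasmid, with monoclonal lines chosen by their knockout efficiency in quantitative PCR, without saying from how many of those lines the libraries came, and overexpression was from a pcDNA plasmid carrying U11, again after monoclonal selection. The overexpression titles carry the labels 79, 86 and 87, each with replicates 1 and 3, and their meaning beyond a line label was not given. In the titles, replicate 1 of each line shares its series of library numbers with untreated replicate 3, and replicate 3 of each line shares its series with untreated replicate 4; no label says that libraries of a group came from separate cultures, so P values measure the spread between these libraries, which may be technical.

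DNA replication begins when the origin recognition complex, CDC6 and CDT1 load the ring of MCM2 to MCM7 onto DNA in G1. In S phase the kinase CDC7, CDC45 and the GINS complex turn the ring into an active helicase, primase and polymerase alpha lay down primers, and polymerases delta and epsilon extend them while held by the PCNA clamp. Many of these genes are transcribed together at the G1/S boundary under E2F factors, so that their RNA is high in proliferating cells such as tumour lines.

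In these tables the U11 entries did not follow the knockout label, and the quantitative PCR by which the lines were chosen was not analysed here. The summed level of the RNU11 entries was 21.4 and 23.8 TPM in the untreated libraries and, in those labelled U11 knockout, 31.6 and 37.4 TPM. In the other experiment RNU11 was 0.033 and 0.623 TPM in the controls, 0.183 and 0.412 TPM in line 79, 3.98 and 3.72 TPM in line 86, and 61.9 and 53.6 TPM in line 87. RNU11 was thus higher in both libraries labelled knockout than in their controls, and line 79 lay within the range of its controls. The experiments also differed in their RNA: in the 4 libraries of the knockout comparison 89 histone genes held 27662 to 34279 TPM, and in the 8 libraries of the overexpression comparison 103 to 180 TPM. Aligned bases were estimated from the deposited coverage and FPKM, a further deposited abundance, at 9.07 to 15.3 gigabases per library. The estimate is the most common ratio of coverage to FPKM among the more abundant genes. Only 6.7 to 9.6% of those genes lay at that ratio. The epithelial keratin and CD44 markers summed to 2047 to 9218 TPM in every library, while UPK1A, UPK2 and UPK3A, the uroplakins of differentiated urothelium, were below 1 TPM in all 12. Of the markers of other cells, leukocyte genes summed to at most 1.84 TPM and muscle genes to at most 0.7 TPM, HBB of red cells reached 3.65 TPM, and CDH5 of endothelium reached 34.1 TPM in line 79. Their part in the results was not tested.

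Sequence is shown first for the genes that hold an intron of the kind U11 acts on. U11 pairs with the start of a U12-type intron, and among 1006 annotated introns of the members (GENCODE 44), 5 genes had introns of at least 60 bases that began with the letters ATATCCTT or GTATCCTT. The lines give 10 bases of exon and 12 of intron on the strand of the gene, with the 8 searched letters in capitals.
POLA2, intron chr11:65267569-65268671, plus strand: ttcaagagctGTATCCTTttct
RFC5, intron chr12:118027019-118027952, plus strand: gcctacagaaGTATCCTTtctc
PRIM1, intron chr12:56741838-56742986, minus strand: gttcctgaaaATATCCTTtccc
POLE2, intron chr14:49664675-49665106, minus strand: tagtaaagctATATCCTTcact
CDC45, intron chr22:19505482-19507385, plus strand: ttgagtatgaGTATCCTTgtgg
All coordinates are hg38, and the match is to letters and not a test of how the introns were spliced. The introns of PRIM1 and POLE2 ended in AC and those of POLA2, RFC5 and CDC45 in AG. They were annotated in 12 of 15 POLA2 transcripts, 3 of 9 RFC5 transcripts, 6 of 11 PRIM1 transcripts, 3 of 13 POLE2 transcripts and 8 of 14 CDC45 transcripts.

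Promoters are shown for 4 members whose level changed in a comparison given later: CDT1 and GINS2 in the libraries labelled knockout, MCM7 and RFC3 in the overexpression lines. Each line gives 100 bases up to or around the annotated start (RefSeq, GRCh38.p14), 5′ to 3′ on the strand of the gene, with 1 match to the E2F letters in capitals.
CDT1, chr16:88803689-88803788, plus strand: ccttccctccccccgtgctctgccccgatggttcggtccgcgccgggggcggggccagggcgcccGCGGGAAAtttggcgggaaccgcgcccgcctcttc
GINS2, chr16:85688955-85689054, minus strand: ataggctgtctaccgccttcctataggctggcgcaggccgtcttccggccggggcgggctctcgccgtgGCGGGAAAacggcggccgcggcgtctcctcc
MCM7, chr7:100101398-100101497, minus strand: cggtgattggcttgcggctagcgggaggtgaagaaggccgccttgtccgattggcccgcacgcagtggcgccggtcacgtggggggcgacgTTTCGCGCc
RFC3, chr13:33818049-33818148, plus strand: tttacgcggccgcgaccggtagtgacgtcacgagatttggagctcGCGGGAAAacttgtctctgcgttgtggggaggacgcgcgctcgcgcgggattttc
The letters searched were TTTCCCGC, TTTCGCGC, TTTGCCGC and TTTGGCGC on both strands, in 250 bases before to 50 bases after the start. They were present in 20 of the 42 members with a promoter in the table (47.6%) and in 1164 of 35116 promoter entries of all genes (3.3%). Members were counted by 1 promoter each, and all genes by every promoter entry. The CCAAT letters of the factor NF-Y were in 24 of 42 members (57.1%) and in 34.6% of all promoters. Of the other members named below for a change or a difference between lines, DTL, TYMS, MCM2 and MCM3 also held E2F letters. PRIM1, FEN1, MCM10, POLD1, RRM1, RRM2, PRIM2, CHAF1A and RFC2 held none in this window.

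In untreated T24 cells the 48 genes summed to 2460 and 2436 TPM in the controls of the knockout comparison and to 5486 and 5216 TPM in the controls of the overexpression comparison. PCNA, the sliding clamp, was the highest member in every library, from 276 to 662 TPM. The ratio of the pairs of controls had a median of 2.07 over the members and ranged from 1.45 for the primase subunit PRIM2 to 4.93 for TYMS, the thymidylate synthase. Over the 12356 genes at 1 TPM or more in every library the median of this ratio was 1.99. Each library was then divided by the median ratio of its genes to their geometric mean over libraries (median ratio scaling). The median was then 1.08 for the members and 1.04 for those genes. These ratios are a description with no test, because library type and number series cannot be told apart between the experiments. From here on levels are compared only within each experiment, and 1 later fit compares the changes found in each.

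In the libraries labelled U11 knockout, 5 of the 48 genes were lower by at least 1.5-fold with an unadjusted P under 0.05 (limma), and none was higher by that rule. They were GINS4, PRIM1, GINS2, CDT1 and FEN1. Over all 14356 genes tested, 3.15% were called lower and 11.8% were called in either direction. PRIM1, GINS2, CDT1 and FEN1 also had a Benjamini-Hochberg adjusted P under 0.05 over all genes, as did 2.53% of genes tested in the lower direction. Without knockout replicate 2 the members called were GINS2 and PRIM1, lower, and TYMS, higher, with CDT1 at -0.56 and FEN1 at -0.58, and no member had an adjusted P under 0.05 when either knockout replicate was left out, where 2 and 0 of all genes had one. With no filter no member had an adjusted P under 0.05 either (26 of 42021 genes), without control replicate 1 the members that did were FEN1 and PRIM1, and CDT1 lost it when all 12 libraries were fitted together. Of the 48, 40 were lower and 8 were higher than in the controls, at log2 fold changes that ran from -1.01 to 0.30 around a median of -0.22, whereas the median of all genes was 0.11 and 36.3% of genes were lower. Both libraries labelled knockout lay below both controls for 33 members, against 20.4% of all genes, and above both controls for 5 members, against 39.9% of all genes. The 48 genes together held 2184 and 2037 TPM in the libraries labelled knockout and 2460 and 2436 TPM in their controls. In bulk RNA, fewer cells in S phase and less of these RNAs per cell cannot be told apart.

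Scaling to median ratios moved the median of all genes from 0.11 to -0.02, with 5.4% of genes then called lower. The median of the members was then -0.37, with 44 of 48 lower and 38 below both controls, against 31.9% of all genes below both controls. The 5 called genes were called again, and POLD1, the catalytic subunit of polymerase delta, joined them at a log2 fold change of -0.61 (adjusted P = 0.0422, limma). POLD1 was 34.4 and 33.6 TPM in the controls and 25.3 and 23.3 TPM in the libraries labelled knockout.

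**Figure D1:**
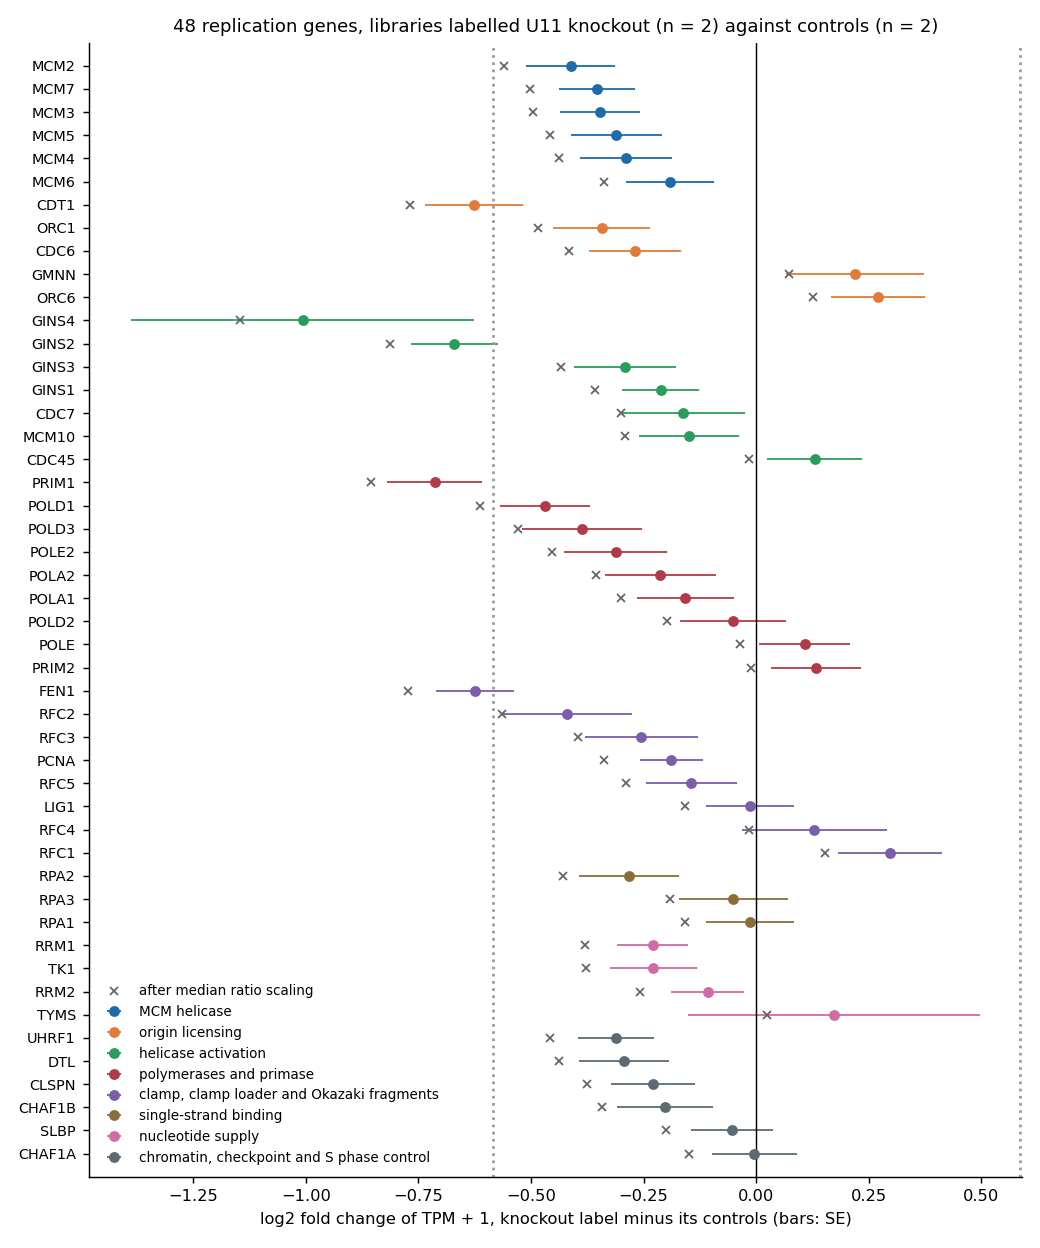
Log2 fold change of TPM + 1 for each of the 48 genes between the libraries labelled U11 knockout (n = 2) and their controls (n = 2), coloured by role; bars are the standard error, crosses are the values after median ratio scaling and dotted lines mark 1.5-fold. GINS4, PRIM1, GINS2, CDT1 and FEN1 lie beyond the lower line, and 40 of 48 points lie below 0.

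All 6 subunits of the MCM helicase were lower in the libraries labelled knockout, and none of them passed the fold threshold. Their log2 fold changes ran from -0.41 to -0.19 with a median of -0.33. MCM2 was 75.6 and 67.4 TPM in the controls and 54.0 and 52.9 TPM in the libraries labelled knockout, a log2 fold change of -0.41 (SE 0.10, adjusted P = 0.0742, limma). MCM7, the most abundant subunit, was 132.7 and 125.0 TPM against 102.8 and 98.6 TPM (-0.35, SE 0.08, adjusted P = 0.0730). In both, the groups did not overlap. The 6 subunits summed to 510.5 and 492.3 TPM in the controls and to 410.1 and 386.0 TPM in the libraries labelled knockout.

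Origin licensing was split. CDT1, which loads the MCM ring, was 24.2 and 23.1 TPM in the controls and 15.7 and 14.2 TPM in the libraries labelled knockout, a log2 fold change of -0.63 (SE 0.11, adjusted P = 0.0422, limma) or 1.54-fold. ORC6, the smallest subunit of the origin recognition complex, was 30.2 and 33.9 TPM in the controls and 39.6 and 38.0 TPM in the libraries labelled knockout (0.27, SE 0.105, adjusted P = 0.168). Both libraries labelled knockout were below the controls for CDT1 and above them for ORC6. ORC1 had a log2 fold change of -0.34, the loader CDC6 -0.27, and GMNN, which codes for geminin, the inhibitor of CDT1, 0.22.

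Of the genes that activate the helicase, 2 of the 4 GINS subunits were called lower. GINS2 was 32.8 and 32.0 TPM in the controls and 20.3 and 19.7 TPM in the libraries labelled knockout, a log2 fold change of -0.67 (SE 0.10, adjusted P = 0.0293, limma) or 1.59-fold. GINS4 was 15.1 and 15.9 TPM in the controls but 11.2 and 4.53 TPM in the libraries labelled knockout, a log2 fold change of -1.01 (SE 0.38, adjusted P = 0.162) or 2.01-fold. The groups did not overlap for either gene, but the value of GINS4 rested on 1 library: without knockout replicate 2 it was -0.44 and was not called. GINS1, the most abundant of the 4, was 51.2 and 51.0 TPM against 44.03 and 43.93 TPM (-0.21, SE 0.09, adjusted P = 0.181). GINS1 was 3.3 times as abundant as GINS4 in the controls and 5.6 times in the libraries labelled knockout. GINS3 was at -0.29, CDC7 at -0.16, MCM10 at -0.15 and CDC45 at 0.13.

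Among the polymerases, PRIM1, the catalytic subunit of primase, was the member called. It was 26.1 and 26.9 TPM in the controls and 15.0 and 16.6 TPM in the libraries labelled knockout, a log2 fold change of -0.71 (SE 0.11, adjusted P = 0.0316, limma) or 1.64-fold. Its partner in primase, PRIM2, had a log2 fold change of 0.13, so that PRIM1 went from the highest of the 4 subunits of the polymerase alpha complex in the controls (26.5 TPM on average) to the lowest in the libraries labelled knockout (15.8 TPM). POLD2, the most abundant member of this role, was 59.4 and 49.7 TPM against 53.3 and 51.6 TPM, with overlapping groups (-0.05, SE 0.12, adjusted P = 0.806). The remaining members ranged from -0.47 for POLD1 to 0.11 for POLE. Of the 5 genes with a U12-type donor shown above, PRIM1 was at -0.71, POLE2 at -0.31, POLA2 at -0.21, RFC5 at -0.14 and CDC45 at 0.13, and PRIM1 was the one called.

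FEN1, the nuclease that trims the flaps of Okazaki fragments, was 113.9 and 109.2 TPM in the controls and 74.5 and 69.6 TPM in the libraries labelled knockout. This was a log2 fold change of -0.62 (SE 0.09, adjusted P = 0.0280, limma) or 1.54-fold, with no overlap. PCNA was 313.8 and 317.3 TPM in the controls and 277.8 and 275.8 TPM in the libraries labelled knockout (-0.19, SE 0.07, adjusted P = 0.155), which also did not overlap. The subunits of the clamp loader ran from RFC2 at -0.42 to RFC1 at 0.30, and LIG1, the ligase that seals Okazaki fragments, was at -0.01.

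The remaining roles had no member called. RPA2 was 44.4 and 38.4 TPM in the controls and 34.4 and 33.1 TPM in the libraries labelled knockout (-0.28, SE 0.11, adjusted P = 0.171, limma), and RPA1 was 36.0 and 35.2 TPM against 36.6 and 33.9 TPM (-0.01, SE 0.10, adjusted P = 0.941), with overlapping groups. In nucleotide supply, RRM1, the large subunit of ribonucleotide reductase, was 147.9 and 148.4 TPM against 128.9 and 123.4 TPM (-0.23, SE 0.08, adjusted P = 0.136). TK1, a thymidine kinase of S phase, was 158.3 and 141.2 TPM against 131.8 and 123.4 TPM (-0.23, SE 0.10, adjusted P = 0.195). UHRF1, which keeps DNA methylation through replication, was 60.03 and 58.95 TPM against 48.1 and 47.4 TPM (-0.31, SE 0.085, adjusted P = 0.0939). The groups of RRM1, TK1 and UHRF1 did not overlap. All 6 genes of chromatin, checkpoint and S phase control were below 0, with a median of -0.22.

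The other 46 genes of replication had a median log2 fold change of -0.06 in the same comparison, with 2 called higher. Over all genes tested there, 8.61% were called higher and 3.15% lower. FBXO5, an inhibitor of the anaphase-promoting complex, had a log2 fold change of 0.93 (adjusted P = 0.0788, limma) and the histone chaperone ASF1A 0.66 (adjusted P = 0.0669). The 22 mitosis genes had a median of 0.08, with the mitotic kinase PLK1 called lower (-0.60, adjusted P = 0.0296) and the checkpoint kinase TTK (0.95, adjusted P = 0.0742) and the kinetochore protein CENPF (0.67, adjusted P = 0.133) called higher.

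**Figure D2:**
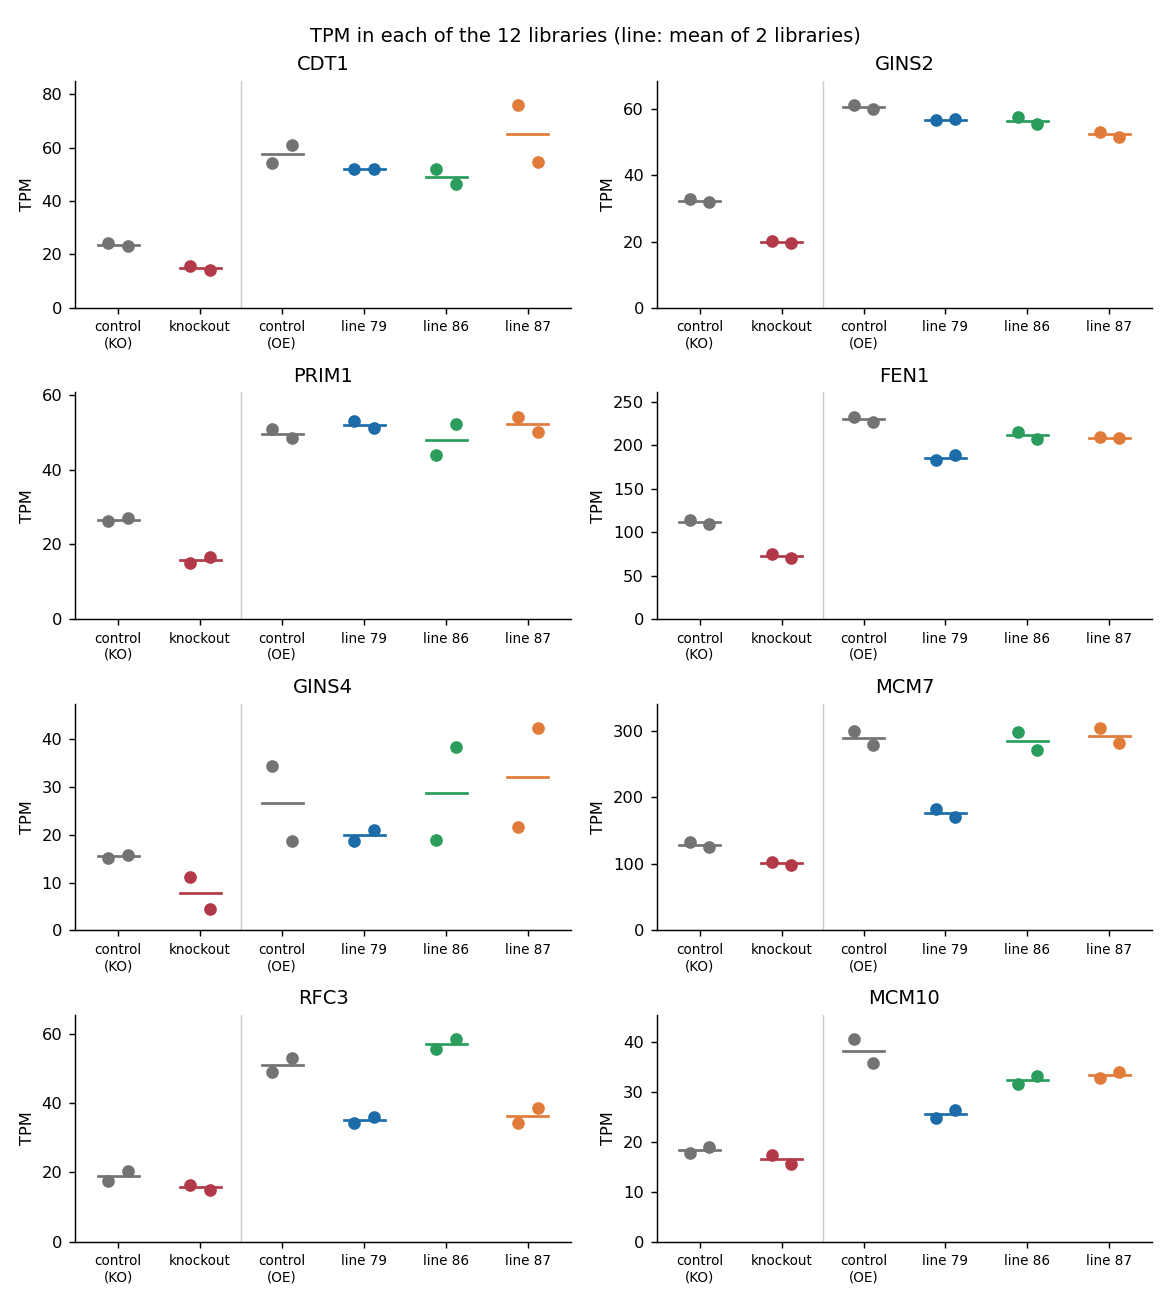
TPM of 8 members in each of the 12 libraries, by group (n = 2 each), with 1 point per library and a bar at the mean. CDT1, GINS2, PRIM1 and FEN1 are lower in both libraries labelled knockout than in both controls, and MCM7 is lower in both line 79 libraries than in the other overexpression libraries and controls.

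With the 6 overexpression libraries set against their 2 controls, no member was called and none had an adjusted P under 0.05 (limma), while 3 of the 48 had an unadjusted P under 0.05, as had 6% of all genes. Over all 15768 genes tested, 1.93% were called and 0.171% had an adjusted P under 0.05. The median log2 fold change of the members was -0.02, equal to that of all genes, with 21 higher and 27 lower. The values ran from -0.32 for MCM10 to 0.28 for TYMS. The 46 other replication genes and the 22 mitosis genes also had no call, with medians of -0.07 and -0.11.

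Some members differed between the 3 lines, in a smaller share than among all genes. An F test over lines 79, 86 and 87 gave an adjusted P under 0.05 (limma) for 5 of the 48 genes, against 16% of all genes, and the same test with library series as a block gave 8, against 19.5% of all genes. With 1 library left out it gave 2 to 4 members and from 7.82% to 13.1% of all genes. The 5 were MCM7 (adjusted P = 0.00386), RFC3 (0.00648), DTL (0.0119), RRM1 (0.0295) and RRM2 (0.0323), and the block added CHAF1A, PRIM2 and TYMS.

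MCM7 was low in line 79. It was 181.9 and 169.9 TPM there, 299.3 and 279.1 TPM in the controls, 298.6 and 270.5 TPM in line 86, and 303.9 and 281.3 TPM in line 87. Both line 79 libraries lay below each of the other 6, which overlapped one another. Against the controls the log2 fold change was -0.71 (SE 0.08, adjusted P = 0.00463, limma) or 1.64-fold, and it was -0.715 and -0.713 when replicates 1 and 3 were each compared with the control of the same library series. MCM7 was the one member called in line 79, where 5.52% of all genes were called lower. Against line 86 the difference was -0.69 (SE 0.08, adjusted P = 0.00433) and against line 87 it was -0.73 (adjusted P = 0.00351). The other 5 MCM genes were not called, and MCM3 replaced MCM7 as the most abundant subunit in line 79 (221.7 TPM on average), where MCM7 led in the other 5 groups. The MCM7 gene (chr7:100092728-100101940, minus strand) holds the microRNA entries MIR106B, MIR25 and MIR93 on its strand, and how reads shared with them were counted was not given.

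A further 4 members were lower in line 79 with an adjusted P under 0.05, each by less than 1.5-fold; over all genes 7.1% were lower by that rule. Leaving out 1 library of line 79 or of its controls leaves 1 library in a group. Fewer members, MCM7 among them, and fewer of all genes then had an adjusted P under 0.05. MCM10, which helps fire the helicase, was 24.7 and 26.4 TPM in line 79 and 40.5 and 35.7 TPM in the controls (-0.55, SE 0.09, adjusted P = 0.0132, limma), and it was 31.6 to 34.0 TPM in lines 86 and 87. RPA3 was 28.1 and 25.2 TPM against 35.1 and 39.8 TPM (-0.48, SE 0.11, adjusted P = 0.0453), and its adjusted P was 0.0643 after median ratio scaling. FEN1 was 182.9 and 188.6 TPM against 232.8 and 227.0 TPM (-0.31, SE 0.06, adjusted P = 0.0223), with 207 to 215 TPM in the other lines. All 3 were lower than both controls in both line 79 libraries, as were 30.7% of all genes. The fourth was RFC3.

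RFC3, a small subunit of the clamp loader, was low in lines 79 and 87 and not in line 86. It was 49.0 and 53.1 TPM in the controls, 34.3 and 36.0 TPM in line 79, 34.2 and 38.6 TPM in line 87, and 55.5 and 58.4 TPM in line 86. Lines 79 and 87 overlapped one another and lay below the controls, and both line 86 libraries lay above them. Of all genes, 30.7% in line 79 and 25.5% in line 87 lay below both controls, and 23.5% in line 86 lay above both. The log2 fold change was -0.52 in line 79 (SE 0.09, adjusted P = 0.0162, limma) and -0.48 in line 87 (SE 0.09, adjusted P = 0.0407), and neither reached 1.5-fold. Line 79 was below line 86 by a log2 difference of -0.68 (adjusted P = 0.00569), and line 86 was above line 87 by 0.63 (adjusted P = 0.0118). Both pairs were called, in comparisons where 6.3% of all genes were called lower in line 79 and 3.47% were called higher in line 86. The call between lines 86 and 87 was lost without line 87 replicate 1, at 0.55, and its adjusted P rose above 0.05 without either library of line 86 as well. The adjusted P of RFC3 in line 87 rose above 0.05 when any 1 of the 8 libraries was left out. Fewer of all genes passed in those fits as well. RFC3 was the lowest of the 5 clamp loader subunits in lines 79 and 87 (35.2 and 36.4 TPM on average), whereas RFC1 was the lowest in the controls (50.7 TPM) and in line 86.

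Lines 86 and 87 had no member called against the controls (limma), with 9 and 11 members at an unadjusted P under 0.05, against 13.5% and 17.8% of all genes; 3.6% and 5.13% of all genes were called. In line 86 no member had an adjusted P under 0.05, against 1.96% of all genes, and in line 87 RFC3 was the 1 member that did, against 3.68% of all genes, joined by TYMS (0.42, adjusted P = 0.0425) with library series as a block. The medians of the members were -0.06 in line 79, -0.02 in line 86 and -0.02 in line 87, and that of all genes in line 79 was -0.03.

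Both subunits of ribonucleotide reductase differed between lines 79 and 87, while of the other genes of nucleotide supply TYMS had a difference of -0.40 (adjusted P = 0.0609, limma) and TK1 of -0.08 (adjusted P = 0.706). RRM1 was 239.9 and 257.2 TPM in line 79, 287.8 and 275.9 TPM in the controls, 285.5 and 311.1 TPM in line 86, and 318.2 and 333.1 TPM in line 87. RRM2, the small subunit of the same reductase, was 181.7 and 193.9 TPM in line 79, 210.4 and 191.3 TPM in the controls, 214.0 and 223.9 TPM in line 86, and 242.5 and 250.5 TPM in line 87. For both subunits line 79 was the lowest line and line 87 the highest, without overlap between them. Of all genes, 29.2% were lower in line 79 than in line 87 without overlap. The difference between lines 79 and 87 was -0.39 for RRM1 (adjusted P = 0.0199, limma) and -0.39 for RRM2 (adjusted P = 0.0205), each below 1.5-fold. DTL, which marks CDT1 for destruction in S phase, was 53.4 and 54.3 TPM in line 87, 41.9 and 43.1 TPM in line 79 and 39.9 and 38.8 TPM in line 86. Line 87 was higher than both, by a difference of -0.33 for line 79 minus line 87 (adjusted P = 0.0227) and -0.44 for line 86 minus line 87 (adjusted P = 0.0134). MCM10 (-0.37, adjusted P = 0.0471), PRIM2 (-0.38, adjusted P = 0.0453) and CHAF1A (0.31, adjusted P = 0.0351), a subunit of the chromatin assembly factor, also had an adjusted P under 0.05 between lines 79 and 87. These adjusted P values rested on all 4 libraries of a pair. Those of MCM10, PRIM2 and CHAF1A also rested on the controls and line 86, which share the estimate of the spread. Leaving out any 1 of the 4 libraries of a pair leaves 1 library in a line, and fewer members and fewer of all genes then passed. MCM7 remained between lines 79 and 87, and DTL was lost between lines 86 and 87. With library series as a block MCM10 was lost (adjusted P = 0.0538) and TYMS passed (adjusted P = 0.025), and between lines 79 and 86 RRM1 (-0.26, adjusted P = 0.0383) and TYMS (-0.37, adjusted P = 0.027) passed as well. Of all genes, 10.5% had an adjusted P under 0.05 between lines 79 and 87, and 5.64% were called lower in line 79 than in line 87. Between lines 86 and 87 the share with an adjusted P under 0.05 was 6.41%. With the block this share was 13% between lines 79 and 87 and 16.7% between lines 79 and 86.

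**Figure D3:**
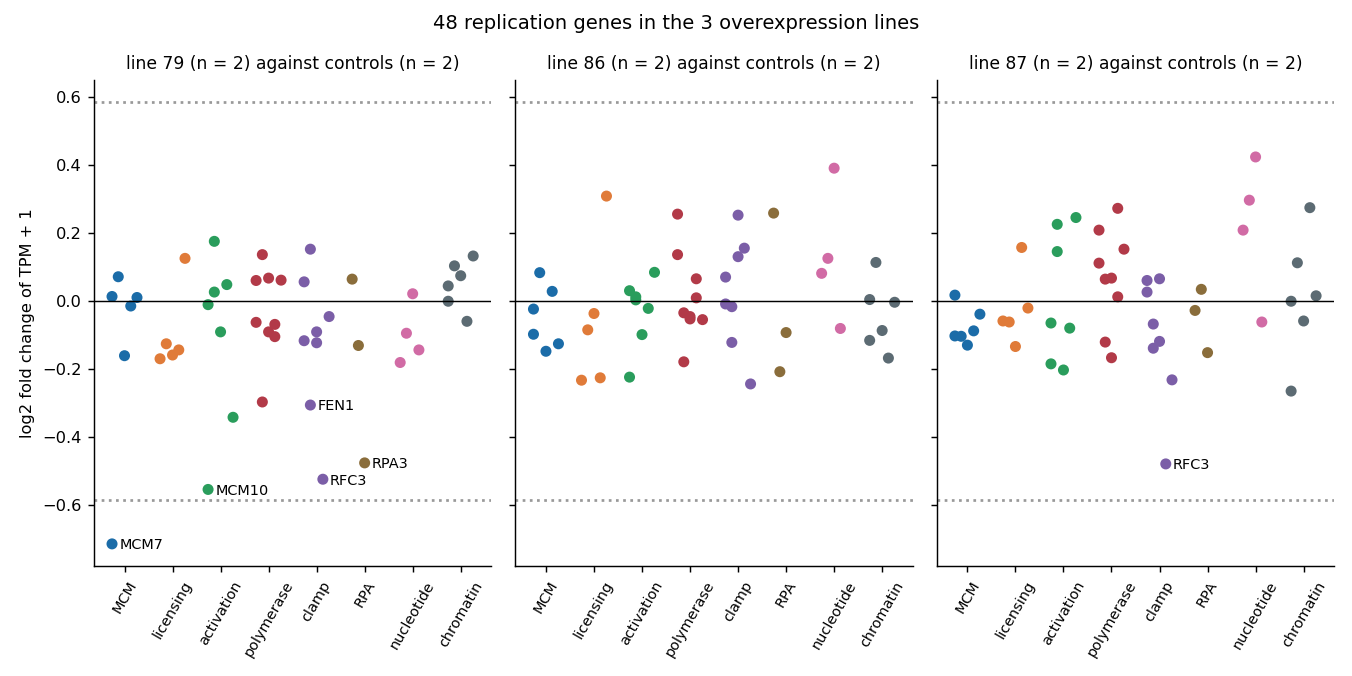
Log2 fold change of TPM + 1 of the 48 genes in lines 79, 86 and 87 (n = 2 each) against the same 2 untreated libraries, which the 3 comparisons share, by role; each point is a gene and dotted lines mark 1.5-fold. MCM7 is at -0.71 in line 79 and near 0 in lines 86 and 87, and RFC3 is low in lines 79 and 87 and above 0 in line 86.

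None of the 5 genes called in the knockout comparison was called in a line or between lines. CDT1 was 54.5 and 60.9 TPM in the controls, 52.1 and 51.9 TPM in line 79, 52.1 and 46.3 TPM in line 86 and 75.9 and 54.5 TPM in line 87. GINS2 was 51.7 to 61.2 TPM and PRIM1 43.8 to 54.2 TPM over these 8 libraries. GINS4 was 34.4 and 18.8 TPM in the controls and 18.7 to 42.4 TPM in the lines, and against the control of the same library series its log2 fold change over the lines was -0.77 in one series and 0.76 in the other. FEN1 is given above. PCNA was 530.0 to 661.9 TPM and UHRF1 113.5 to 139.3 TPM.

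Of the other replication genes, POLE4, an accessory subunit of polymerase epsilon, was called higher in line 79 (0.845, adjusted P = 0.0092, limma), and SAMHD1, which degrades nucleotides, was called lower (-0.74, adjusted P = 0.00219), together with DBF4, the partner of CDC7 (-0.68, adjusted P = 0.0535). The mitotic checkpoint kinase BUB1 was also called lower in line 79 (-0.71, adjusted P = 0.00425). In that line, 2.43% of all genes were called higher and 5.52% lower. TCF19 was called lower in line 86 (-0.645, adjusted P = 0.0582). Between pairs of lines, TCF19 was lower in line 86 than in line 87 by -1.02 (adjusted P = 0.00701), ORC5 was lower in line 79 than in line 86 by -0.61 (adjusted P = 0.00825), and DNA2, a nuclease of Okazaki fragments, was lower in line 79 than in line 87 by -0.68 (adjusted P = 0.0102). Line 79 was also called against line 86 for TCF19 (0.68), POLD4 (-0.62) and BUB1 (-0.66), and against line 87 for DBF4 (-0.78), the S phase kinase CDK2 (-0.76), the proliferation marker MKI67 (-1.36) and BUB1 (-0.77). Of these, CDK2 and MKI67 had adjusted P values of 0.182 and 0.15, and the others were below 0.05.

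The changes under the knockout and overexpression labels were compared in 1 fit of all 12 libraries, with 1 shared estimate of the spread. Library type differs between the experiments, so its part in these differences cannot be told apart from that of the labels. PRIM1 had a difference of -0.74 between the changes (SE 0.14, adjusted P = 0.0214, limma) and was the one member called, where 2.88% of all genes were called lower. GINS2 had a difference of -0.54 (SE 0.11, adjusted P = 0.0291), below 1.5-fold; 0.921% of all genes had an adjusted P under 0.05 in that direction. The median difference of the members was -0.18, and that of all genes was 0.12. After median ratio scaling 6 members were called lower, against 5.68% of all genes: PRIM1, GINS2, CDT1, FEN1, POLD1 and RFC2. Of the other replication and mitosis genes, FBXO5 (1.10, adjusted P = 0.0616), MCM9 (0.77, adjusted P = 0.115), ASF1A (0.62, adjusted P = 0.119), TTK (0.95, adjusted P = 0.0416) and CENPF (0.68, adjusted P = 0.113) were called higher. As deposited, 8.32% of all genes were called higher.

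The position of the members in the genome was then set beside their values. For each member the genes tested within 1 megabase on either side were taken, the member itself left out, and their log2 fold changes were compared with the same windows around all genes. In the knockout comparison the median of a window had a median of 0.11 over 13338 genes, with 5% of windows below -0.235. Of the 52 neighbours of FEN1 (chr11:61792637-61797244), 49 were lower, with a median of -0.41 that lay at percentile 0.2 of all windows, and 9 of the 52 were called lower. FADS2, a fatty acid desaturase that overlaps FEN1 on the same strand, was at -0.89 (adjusted P = 0.0217, limma). CDT1 (chr16:88803213-88809258) had 28 of 34 neighbours lower, with a median of -0.275 at percentile 3.1. GINS2 (chr16:85676198-85690073) had 10 of 12 lower, with a median of -0.24 at percentile 4.7. FEN1, CDT1 and GINS2 thus lay among genes that were lower with them, and each was lower than the median of its window.

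PRIM1 and GINS4 did not lie in such windows. Of the 63 neighbours of PRIM1 (chr12:56731596-56752373), 24 were lower, with a median of 0.13 at percentile 55.3, and NACA, which overlaps it on the same strand, was at -0.03. GINS4 (chr8:41529206-41545046) had 5 of 12 neighbours lower and a median of 0.07. GINS3 and POLA2, which were not called, also lay in low windows, with medians of -0.26 (percentile 3.5) and -0.245 (percentile 4.3).

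In line 79 the windows had a median of -0.02 over 14792 genes, with 5% below -0.38. Of the 59 neighbours of MCM7, 55 were lower, with a median of -0.52 at percentile 1.7, and 18 were called lower. The same neighbours had medians of 0.00 in line 86 and -0.07 in line 87. The low values reached further than 1 megabase: within 10 megabases 149 of 172 genes were lower in line 79, with a median of -0.48. All 11 neighbours of MCM10 (chr10:13161554-13211104) were lower, with a median of -0.52 at percentile 1.6. RFC2, on chromosome 7 as MCM7 is, had 26 of 26 neighbours lower and a median of -0.57 at percentile 0.3, but was itself at -0.09, at 56.9 and 51.9 TPM in line 79 and 57.5 and 58.3 TPM in the controls. FEN1 (percentile 26.6) and RPA3 (percentile 28.8), both lower in line 79, did not lie in such windows.

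RFC3 (chr13:33818049-33966558) had 3 neighbours tested within 1 megabase, so genes within 10 megabases were used. Of these 75 genes, 68 were lower in line 79 (median -0.34), 69 were lower in line 87 (median -0.34) and 18 were lower in line 86 (median 0.14). RFC3 itself was at -0.52, -0.48 and 0.155 in lines 79, 87 and 86, below 0 in the lines where the window was low and above 0 in line 86. The part that the position of MCM7, MCM10, RFC3, FEN1, CDT1 or GINS2 has in their values was not tested.

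**Figure D4:**
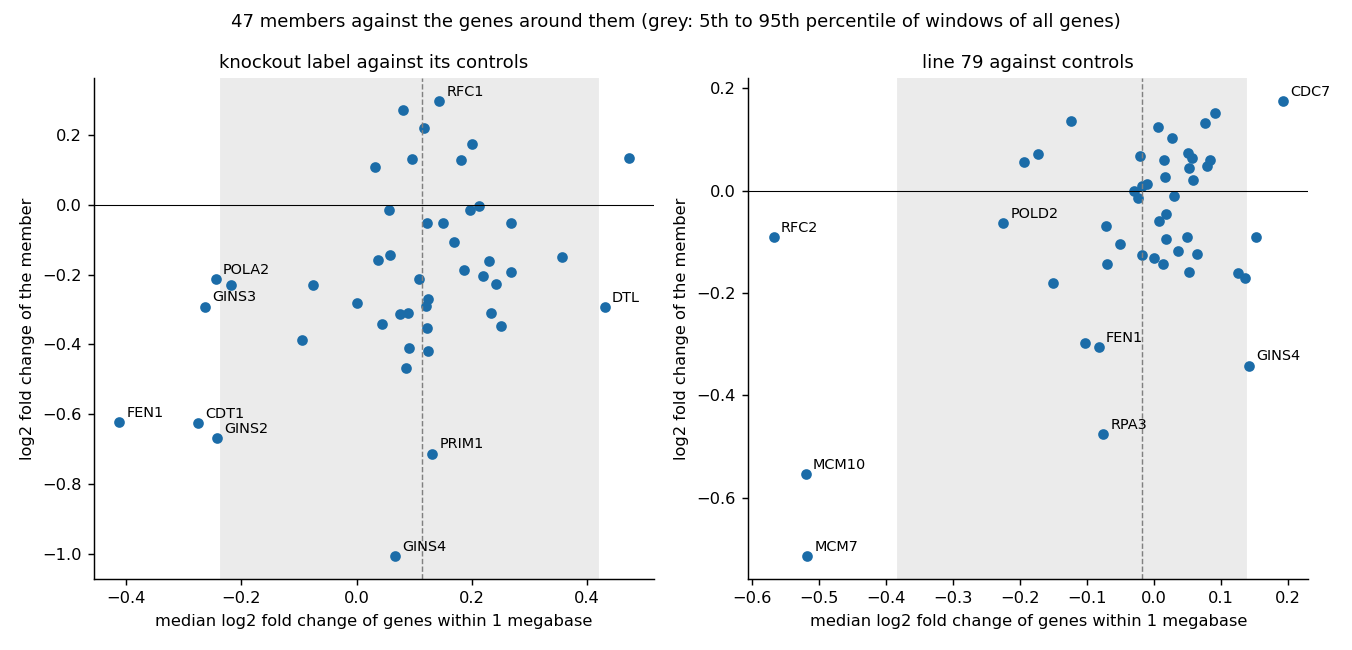
Log2 fold change of each member (vertical axis) against the median log2 fold change of the other genes tested within 1 megabase (horizontal axis), in the knockout comparison and in line 79; the grey band spans the 5th to 95th percentile of the windows of all genes and the dashed line is their median. FEN1, CDT1 and GINS2 in the first and MCM7 and MCM10 in the second lie at the lower left, PRIM1 lies low at a window median of 0.13, and RFC2 lies near 0 at the lowest window of line 79.

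The medians of whole chromosomes were then compared. In the knockout comparison the chromosomes with the lowest medians of 23 were chromosome 16 (-0.16, with 470 of 646 genes lower), which holds ORC6, CDT1, GINS2 and GINS3, and chromosome 11 (515 of 780 genes lower), which holds POLA2, POLD3, FEN1 and RRM1. Of these 8 members 7 were below 0, and ORC6 was at 0.27. In line 79 the lowest were chromosome 10 (-0.35, 548 of 620 genes lower), which holds MCM10, chromosome 7 (-0.35, 655 of 779 genes lower), which holds MCM7, POLD2, RFC2 and RPA3, and chromosome 13 (-0.29, 232 of 276 genes lower), which holds RFC3. In line 87 the lowest was chromosome 13 (-0.29, 239 of 276 genes lower), and in line 86 chromosome 13 was the highest at 0.11. These medians are descriptions, since the genes of a chromosome share the same libraries.

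**Figure D5:**
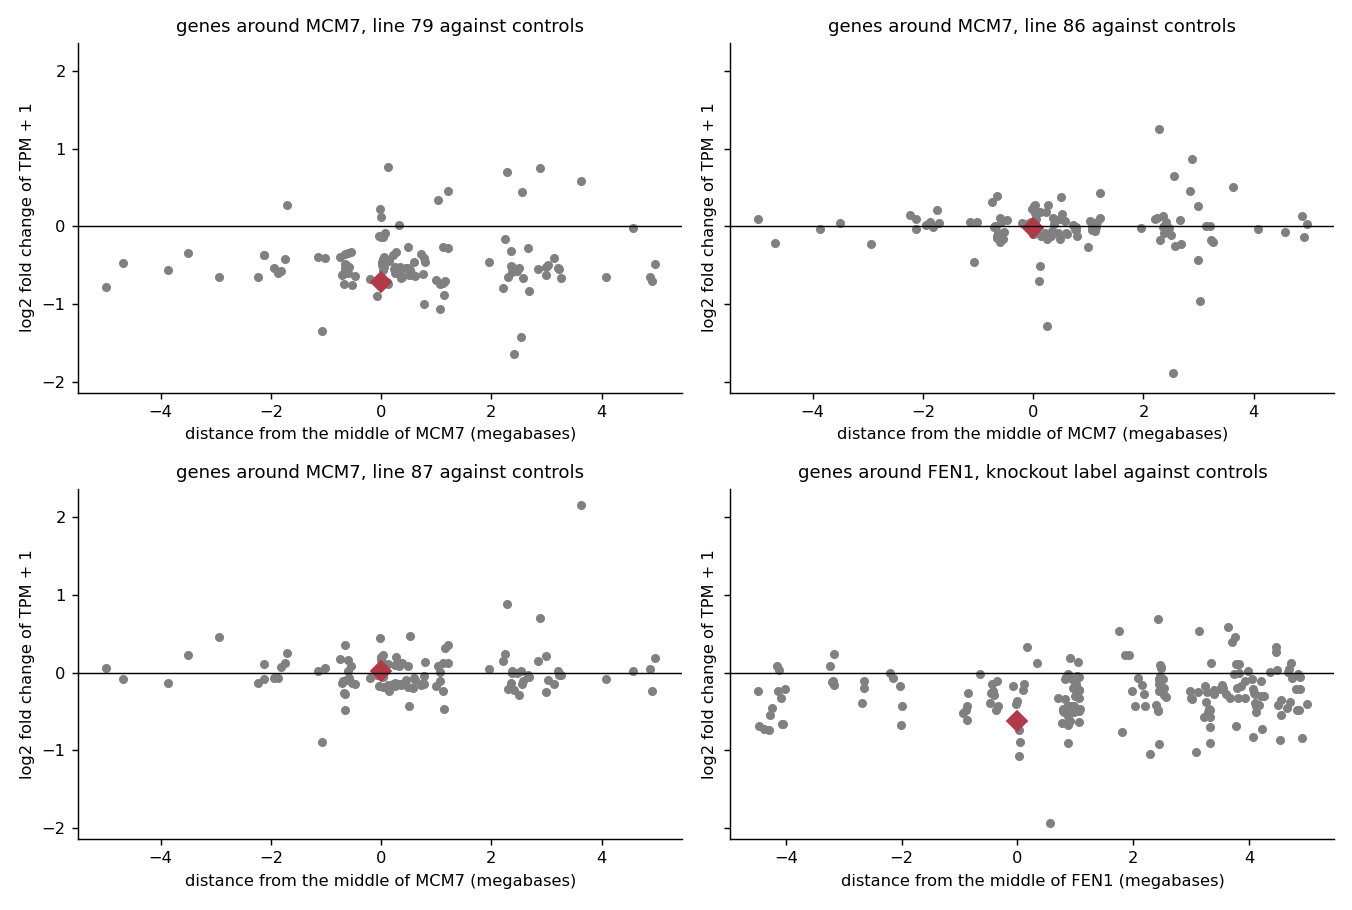
Log2 fold change of TPM + 1 of each gene tested within 5 megabases of MCM7 in lines 79, 86 and 87, and of FEN1 in the knockout comparison, against distance from the middle of the member in megabases; grey points are genes and the red diamond is the member. Around MCM7, 104 of 115 genes are below 0 in line 79, and around FEN1 158 of 189 genes are below 0 in the libraries labelled knockout.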

How the data were processed

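Whole-transcriptome libraries from T24 cells were made by the authors. Reads were trimmed with fastp, aligned to hg38 with Hisat2 and quantified with StringTie, versions not given, and the coverage signal, FPKM and TPM per gene were deposited by the authors; counts were not used here. The methods state removal of ribosomal RNA and the labels state polyA RNA. The main values were TPM, which sum to the same total in each library, so a few abundant genes lower all others. In the knockout comparison the 10 most abundant genes held 45.5 to 49.6% of TPM and in the overexpression comparison 7.1 to 7.6%.

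Tests on log2(TPM + 1) used limma 3.58.1 under R 4.3.3 (two-sided, empirical Bayes with a mean-variance trend) on every gene that reached 1 TPM in 2 libraries of the fit. The pseudocount understates changes of low genes. Called means an unadjusted P under 0.05 and at least 1.5-fold, after the study's thresholds, and P values adjusted by Benjamini-Hochberg over all genes are given beside it. Fits are those the report names, with lines 79, 86 and 87 and their controls in 1 fit. The fits were tested on simulated data first. The members and lists were chosen with earlier results of these data known, and the gene windows, the chromosome medians and 2 joint settings (a replicate block with scaling, scaling with a stricter filter) were chosen after seeing the data. Values in every library are given for members called and, in each role, for the most abundant member and the one with the largest change under the knockout label; at most 4 called genes per comparison are named from each other list, and 1 gene of the other replication genes is not reported here.

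Deviations of libraries with the same number correlated at 0.144 to 0.192 in the overexpression lines, where the number marks the library series. Coordinates are hg38 with GENCODE 44, in which all 48 genes were found, 18 of them with the same start and end. Alternatives were FPKM, median ratio scaling, a pseudocount of 0.1, other filters, no trend, a replicate block and all 12 libraries in 1 fit. Each library was also left out, and the mean of each line label was used for the overexpression label. Python 3.11.15 with pandas 2.3.3 and matplotlib 3.10.9 made the summaries and figures.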

Additional observations from a re-analysis of the deposited data

Results flagged for a closer look

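Among the 48 genes in the 6 overexpression libraries, 2 had a library far from the others: CDT1 at 75.9 TPM in line 87 replicate 1 and POLE2, a subunit of polymerase epsilon, at 49.3 TPM in line 86 replicate 3. Such gaps arise by chance in about 1 in 20 groups, and 48 were tested.

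The change differed between the knockout and overexpression labels for PRIM1 (-0.74 on the log2 scale) and GINS2 (-0.54). Library type also differs between these labels. Lines 79 and 86 differed in MCM7 (-0.69) and RFC3 (-0.68). Lines 79 and 87 differed in MCM7 (-0.73), MCM10 (-0.37), PRIM2 (-0.38), RRM1 (-0.39), RRM2 (-0.39), DTL (-0.33) and CHAF1A (0.31). Lines 86 and 87 differed in RFC3 (0.63) and DTL (-0.44). Each of these differences had an adjusted P under 0.05 in limma, and the values in every library for those not given before were 33.3 and 36.5 TPM in the controls, 30.7 and 34.1 TPM in line 79, 33.7 and 36.5 TPM in line 86 and 42.5 and 42.1 TPM in line 87 for PRIM2, and 76.1 and 71.6, 77.5 and 74.9, 67.5 and 68.6, and 62.8 and 59.8 TPM for CHAF1A in the same order.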

How the results depend on the processing

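Of the values that answer a comparison (counts of called members and medians), 265 alternatives kept the value within the spread or within 1.5 times the count and 37 did not. In the knockout comparison the median of the members was -0.32 with FPKM and -0.37 with median ratio scaling, also with the replicate block or the stricter filter added, and -0.27 to -0.19 when 1 library was left out. The count of called members was 3 to 6 then. Without knockout replicate 2 it was 3 (GINS2 and PRIM1 lower, TYMS higher), with CDT1 at -0.56, FEN1 at -0.58 and GINS4 at -0.44. The replicate numbers of the knockout comparison were shared without pairing the libraries (correlation 0.016). The block left 5 called members and none with an adjusted P under 0.05 in limma, against 1.04% of all genes. With the block and median ratio scaling, a setting chosen after seeing the data, 6 members had one, against 10.2% of all genes. They were CDT1, FEN1, GINS2, GINS4, POLD1 and PRIM1. GINS4 was also not called with a pseudocount of 0.1, no filter, no trend, or all 12 libraries in 1 fit. Some members gained an adjusted P under 0.05 in limma. They were MCM3, MCM7 and POLD1 with FPKM, where 10.7% of all genes had one. POLD1 and POLD3 gained one with median ratio scaling (8.64% of all genes), and MCM2 with all 12 libraries in 1 fit (7.78%). When 1 library was left out, POLD2 ranged from -0.177 to 0.076 and RPA1 from -0.068 to 0.040, with the sign turned for POLD2 at 0.076 and RPA1 at 0.002 without control replicate 1 and for RPA1 at 0.040 without knockout replicate 2.

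In line 79 the median was -0.019 with median ratio scaling, with or without the replicate block, and -0.062 to -0.020 with 1 library left out, when 1 to 2 members were called (MCM7 in every case, and MCM10). By adjusted P with no fold threshold the counts were 5 in line 79, 1 in line 87, 7 for line 79 minus line 87, 2 for line 86 minus line 87 and 2 for the difference between labels. With 1 library left out the first 4 of these counts fell in some fits and rose in none. Fewer of all genes passed in those fits as well. With 1 library left out, the median of line 86 was -0.047 to 0.016, that of line 79 minus line 87 -0.073 to -0.011, and line 86 minus line 87 had 0 to 2 called members, and 0 with FPKM. RFC3 in that pair was 0.58 with FPKM and 0.55 without line 87 replicate 1, and its adjusted P under 0.05 in line 87 was lost whenever 1 library was left out. The median of line 79 minus line 86 was -0.004 with FPKM and 0.012 with scaling, also with the replicate block. The F test gave 3 members with no filter, 3 with no trend, 2 to 4 with 1 library left out, and 8 with the replicate block, with or without scaling. For the difference between labels 5 members were called with FPKM and 6 with scaling, with medians of -0.28 and -0.35. With the replicate block MCM10 lost its adjusted P under 0.05 for line 79 minus line 87 (0.0538), TYMS gained one in line 87 and for line 79 minus lines 86 and 87, and RRM1 for line 79 minus line 86; no count of members past both P and fold changed in lines 79, 86 and 87 or between them. The causes of these shifts were not tested.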
